A study of Homo sapiens with 6 samples.

Results

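The genes of polyamine synthesis and breakdown were followed by name in RNA-seq counts of LNCaP cells with and without PACT. The 10 genes were *ODC1*, *AMD1*, *SRM*, *SMS*, *SAT1*, *SMOX*, *PAOX*, *AZIN1*, *OAZ1* and *OAZ2*. They were chosen by their known function, with earlier results of these data known, and were matched by symbol. All 10 were found among the 29806 NCBI Gene numbers of the count table, and all 10 were among the 14462 genes that passed the filter on low counts and were tested. LNCaP is an androgen-responsive human prostate cancer cell line, and PACT is the double-stranded RNA binding protein encoded by *PRKRA*. LNCaP parental cells (3 libraries) were compared with LNCaP PACT KO cells (3 libraries), both grown in RPMI-1640 with 10% serum and harvested 48 h after plating at about 80% confluency. The PACT KO cells were a single colony picked after transfection of a plasmid with Cas9 and a guide RNA and a sort for green fluorescence, a step that the methods do not describe for the parental cells. The libraries of a group are separate dishes of the same cells, so p-values measure the spread between dishes, and knockout and clone cannot be told apart. The comparison asks which of the polyamine genes differ in mRNA level when PACT is absent.

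Putrescine, spermidine and spermine are small, positively charged amines that bind nucleic acids and are needed for growth. Ornithine decarboxylase makes putrescine, spermidine synthase and spermine synthase extend it with aminopropyl groups from decarboxylated S-adenosylmethionine, and acetylation followed by oxidation leads back. The pool is held by feedback, since polyamines cause a frameshift during translation of antizyme, and antizyme binds ornithine decarboxylase and sends it to the proteasome. The luminal cells of the prostate make and secrete polyamines, especially spermine, in large amounts, and *ODC1* is a known target of both androgen and MYC.

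The sequences of the 2 antizymes and of 3 promoters are shown for genes with different results. These are *OAZ1* against *OAZ2*, and the synthesis genes *SRM* and *ODC1* against *SAT1*. Effects of these sequences on mRNA levels were not tested. The first 3 are 30-base stretches of the transcripts around the site where the ribosome shifts by 1 base, taken from GENCODE release 29 and written 5′ to 3′, with TCCTGA in capitals, a TCC codon and the TGA stop that the shift passes. *OAZ3*, a further antizyme that was tested as a neighbour of the pathway, is added for comparison.
OAZ1: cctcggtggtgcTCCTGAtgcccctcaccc
OAZ2: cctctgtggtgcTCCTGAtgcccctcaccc
OAZ3: tgcctccagtgcTCCTGAgtccctagtagg
*OAZ1* and *OAZ2* shared 29 of the 30 bases, whereas *OAZ3* shared 14 with *OAZ1* and 15 with *OAZ2*, and all 3 held TCCTGA.

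The next sequences are from the starts of *SRM*, *ODC1* and *SAT1* (RefSeq, GRCh38.p14), written 5′ to 3′ on the strand of the gene, with the E-box CACGTG, the letters that MYC and its partners bind, in capitals. The *SRM* stretch is chr1:11060039-11060268 on the minus strand and lies before the annotated start. The *ODC1* stretch is chr2:10447998-10448102 on the minus strand, in the intron between exon 1 and exon 2 of the GENCODE transcript ODC1-201, near a further RefSeq start. The *SAT1* stretch is chrX:23782957-23783172 on the plus strand and lies before the start of the gene.
SRM: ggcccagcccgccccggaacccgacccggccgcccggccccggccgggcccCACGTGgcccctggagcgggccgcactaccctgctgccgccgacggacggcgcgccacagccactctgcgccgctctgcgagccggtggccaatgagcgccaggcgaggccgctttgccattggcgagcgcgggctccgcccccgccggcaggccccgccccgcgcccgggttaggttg
ODC1: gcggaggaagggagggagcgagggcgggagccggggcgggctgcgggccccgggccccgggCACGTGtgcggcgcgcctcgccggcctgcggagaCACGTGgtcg
SAT1: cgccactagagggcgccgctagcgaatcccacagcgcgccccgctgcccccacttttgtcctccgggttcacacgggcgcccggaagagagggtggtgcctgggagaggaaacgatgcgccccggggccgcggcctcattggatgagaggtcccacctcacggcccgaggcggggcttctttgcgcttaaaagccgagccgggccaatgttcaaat
None of the 3 stretches overlapped a GENCODE exon, but the last 15 bases of the *ODC1* stretch, its second E-box among them, lie at or after the further RefSeq start. *SRM* had 1 E-box, *ODC1* had 2 with 28 bases between them, and the *SAT1* stretch had none. The *ODC1* stretch was cut to hold its E-boxes, and no lower gene without an E-box had its promoter printed. This contrast therefore follows from the choice of stretches and is no result about direction of change.

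RefSeq windows from 250 bases before to 50 bases after a start were at hand for 7 of the 10 genes, namely all except *SMOX*, *PAOX* and *AZIN1*. An E-box was in a window of 2 of the 7 genes (*SRM* and *ODC1*), against 7.43% of the 27305 genes with a window. Any window counted for the 7 genes, but these shares of genes count only the first window listed for each gene. The first window of *ODC1* had no E-box, and both of its E-boxes were in a further one. The windows of *AMD1*, *SMS*, *OAZ1*, *OAZ2* and *SAT1* held none, and *AMD1*, *SMS* and *OAZ1* were lower in PACT KO cells, as *SRM* and *ODC1* were. The GC box GGGCGG, the core letters bound by SP1, was in a window of 6 of the 7 (all but *SAT1*), against 44.6% of genes. The cyclic AMP response core TGACGT was in 1 of the 7 (*ODC1*), against 8.32% of genes. All motifs were searched on both strands, the 3 sets of letters are distinct, CACGTG reads the same on both strands, and a match describes the letters and not a bound site.

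The libraries held 21835590 to 24940838 counts on genes in the parental group and 19930060 to 24484415 in the PACT KO group. CPM are counts scaled to a common library total with edgeR's TMM factors. *PRKRA* itself was at 37.1 ± 1.96 CPM in parental and 12.5 ± 0.995 CPM in PACT KO cells (SD, n = 3 each), with a log2 fold change of -1.57 (standard error 0.07), so its mRNA was still detected in the knockout. The paper reports depleted PACT protein in a western blot and checked the locus by PCR and sequencing. The mRNA level does not measure protein. All 12 luminal prostate markers listed were expressed, with summed levels of 4376 to 4405 CPM in parental and 4472 to 4526 CPM in PACT KO libraries. Of them, 4 were lower, 4 higher and 4 not called at an FDR under 0.01, against 18.8% lower and 15.3% higher of all genes tested. Among these markers, the androgen-regulated *KLK3* (-2.50) and *KLK2* (-0.84) had the lowest log2 fold changes to be called, and *SLC45A3* (0.54) was among those higher. Of 12 markers of basal, stromal, endothelial, leukocyte and neuroendocrine cells, 5 passed the filter, with *VWF* lower (log2 fold change -0.61), *COL1A1* higher (0.52) and 3 not called, among them *CD68* (-0.43, FDR = 0.0512 in edgeR). Their summed level over all 12 was 64.2 to 66 CPM in parental and 63.5 to 71.4 CPM in PACT KO libraries, the defining markers *KRT5* and *PECAM1* were at 0 in all libraries, and the part of other cells in the results was not tested. In bulk RNA, fewer cells of a kind and less RNA per cell cannot be told apart.

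Among the polyamine genes, all 4 synthesis enzymes were lower in PACT KO cells by 9.59% to 20.8%, and *SAT1*, the acetyltransferase that starts breakdown, was 1.66-fold higher. *SMOX*, which oxidises spermine, was 21.5% higher, and *OAZ1*, the main antizyme, was 18.1% lower. *PAOX*, *AZIN1* and *OAZ2* did not pass the test. By edgeR's quasi-likelihood test (2-sided, Benjamini-Hochberg over all genes tested, FDR under 0.01), 5 of the 10 genes were thus lower and 2 higher. Of the 2 higher, *SMOX* was not called in 6 of 18 alternative fits. Of all 14462 genes tested, 34.2% passed, 18.8% lower and 15.3% higher. With a change of 1.5-fold or more added, the threshold for a differentially expressed gene (DEG), only *SAT1* of the 10 was called, against 5.72% of all genes, of which 3.07% were higher and 2.65% lower. High counts make small changes easier to call. Of the 7 polyamine genes averaging 100 CPM or more, 5 passed, all lower and without overlap of the groups. Among the 2420 genes at that level 55.6% passed, 37.7% were lower and 70.3% did not overlap. The groups did not overlap for 7 of the 10 genes, against 52.2% of all genes, and an exact permutation test on 1 such gene gives p = 0.10, the smallest that 3 against 3 allows. The median log2 fold change was -0.07 over the 10 genes and 0.00 over all genes tested.

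**Figure D1:**
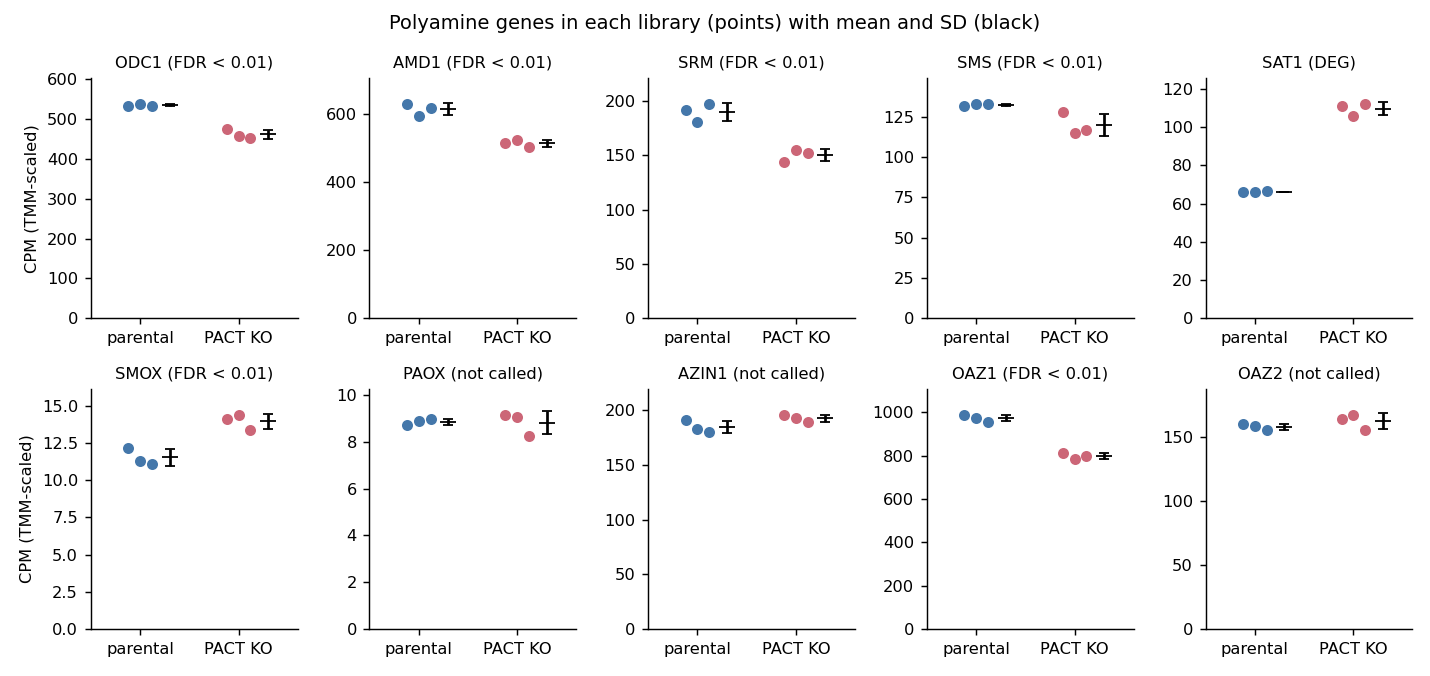
CPM of each polyamine gene in each library (points), with the mean and SD of 3 libraries in black, for LNCaP parental and PACT KO cells; each vertical axis starts at 0 and has its own range. The groups are apart for *ODC1*, *AMD1*, *SRM*, *SMS*, *SAT1*, *SMOX* and *OAZ1* and overlap for *PAOX*, *AZIN1* and *OAZ2*.

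*ODC1* (NCBI Gene 4953) encodes ornithine decarboxylase, the first and regulated step of synthesis. It was at 533, 538 and 534 CPM in parental replicates 1, 2 and 3 and at 475, 459 and 452 CPM in PACT KO replicates 1, 2 and 3. Every knockout library was below every parental one. The means were 535 ± 2.40 CPM and 462 ± 12.1 CPM (SD, n = 3 each), and the log2 fold change was -0.21 (standard error 0.03, FDR = 1.61e-08 in edgeR) or a fall of 13.6%. The reads behind these values were 12107, 11626 and 13225 in parental and 11744, 11168 and 9131 in PACT KO libraries.

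*AMD1* (262) encodes S-adenosylmethionine decarboxylase, which makes the aminopropyl donor, and had the highest CPM of the 4 synthesis genes. It was at 630, 595 and 618 CPM in parental and at 515, 525 and 504 CPM in PACT KO libraries. The gap between the groups, from 595 to 525 CPM, was wider than the range within either group. Its log2 fold change was -0.26 (standard error 0.03, FDR = 3.85e-10 in edgeR), a fall of 16.2%.

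*SRM* (6723), spermidine synthase, was at 192, 181 and 197 CPM in parental and 144, 155 and 152 CPM in PACT KO libraries. All 3 knockout libraries were lower, with means of 190 ± 7.90 and 150 ± 5.42 CPM (SD, n = 3 each). Its log2 fold change of -0.34 (standard error 0.03, FDR = 2.87e-11 in edgeR), a fall of 20.8%, was the most negative of the 10 genes, and its 95% interval, -0.40 to -0.27, overlapped those of *AMD1* (-0.31 to -0.20) and *OAZ1* (-0.34 to -0.24).

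*SMS* (6611), spermine synthase, was at 132, 133 and 133 CPM in parental libraries, and at 128, 115 and 117 CPM in PACT KO libraries. Replicate 1 of the knockout lay nearer to the parental libraries than to the other two. The log2 fold change was -0.15 (standard error 0.03, FDR = 5.05e-04 in edgeR), a fall of 9.59% with a 95% interval of -0.21 to -0.08 on the log2 scale. The median log2 fold change of the 4 synthesis genes was -0.23.

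*SAT1* (6303) encodes spermidine/spermine N1-acetyltransferase, which acetylates polyamines for export or oxidation and is itself induced by polyamines. It was at 65.8, 66 and 66.3 CPM in parental and at 111, 106 and 112 CPM in PACT KO libraries. The parental libraries lay within 1 CPM of each other, and the lowest knockout library was far above them. The means were 66.1 ± 0.271 and 110 ± 2.83 CPM (SD, n = 3 each), and the log2 fold change was 0.73 (standard error 0.03, FDR = 6.36e-20 in edgeR). The fold of 1.66 had a 95% interval of 1.58 to 1.74, which lies above 1.5. By p-value, *SAT1* ranked 51 of 14462 genes, and 2.84% of genes had a higher log2 fold change.

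The oxidases were the least abundant of the 10 genes. *SMOX* (54498), spermine oxidase, was at 12.2, 11.3 and 11.1 CPM in parental and 14.1, 14.4 and 13.4 CPM in PACT KO libraries, from 244 to 350 reads a library. The groups did not overlap, and the log2 fold change was 0.28 (standard error 0.09, FDR = 0.00659 in edgeR). That call did not hold in 6 of 18 alternative fits, over which the FDR ran from 0.00258 to 0.0337. It was lost with edgeR's likelihood ratio test (FDR = 0.0160), edgeR's exact test (0.0174) and DESeq2 (0.0187), and without parental replicate 2 (0.0260), parental replicate 3 (0.0337) or PACT KO replicate 2 (0.0206) in edgeR.

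*PAOX* (196743) encodes the peroxisomal oxidase of acetylated polyamines, the step after *SAT1*. It was at 8.72, 8.88 and 8.96 CPM in parental and 9.15, 9.05 and 8.26 CPM in PACT KO libraries. The parental libraries lay within the range of the knockout ones, and the 95% interval of the log2 fold change ran from -0.19 to 0.19 (FDR = 0.980 in edgeR). A change within that interval, in either direction, is compatible with these counts.

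*OAZ1* (4946), the most abundant of the 10 genes, was at 989, 976 and 958 CPM in parental and 812, 783 and 801 CPM in PACT KO libraries. All knockout libraries were lower, and its log2 fold change was -0.29 (standard error 0.03, FDR = 5.98e-12 in edgeR), a fall of 18.1%. *OAZ2* (4947), which encodes a second antizyme, was at 160, 158 and 155 CPM in parental and 164, 167 and 155 CPM in PACT KO libraries. Its groups overlapped, and its log2 fold change was 0.04 (95% interval -0.02 to 0.10, FDR = 0.277 in edgeR). The 2 antizymes thus gave different values. Their frameshift sites printed above differ at 1 of 30 bases and act in translation, which was not measured here.

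*AZIN1* (51582) encodes the antizyme inhibitor, a relative of ornithine decarboxylase without its activity that takes up antizyme. It was at 191, 183 and 180 CPM in parental and 196, 193 and 189 CPM in PACT KO libraries. The lowest knockout library was below the highest parental one, and the log2 fold change was 0.06 (95% interval 0.00 to 0.12, FDR = 0.0906 in edgeR). With scaling by library size alone the log2 fold change was 0.09 and passed (FDR = 0.00886), and over the 18 alternative fits the FDR ran from 0.00886 to 0.305. No call was therefore made for *AZIN1*.

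**Figure D2:**
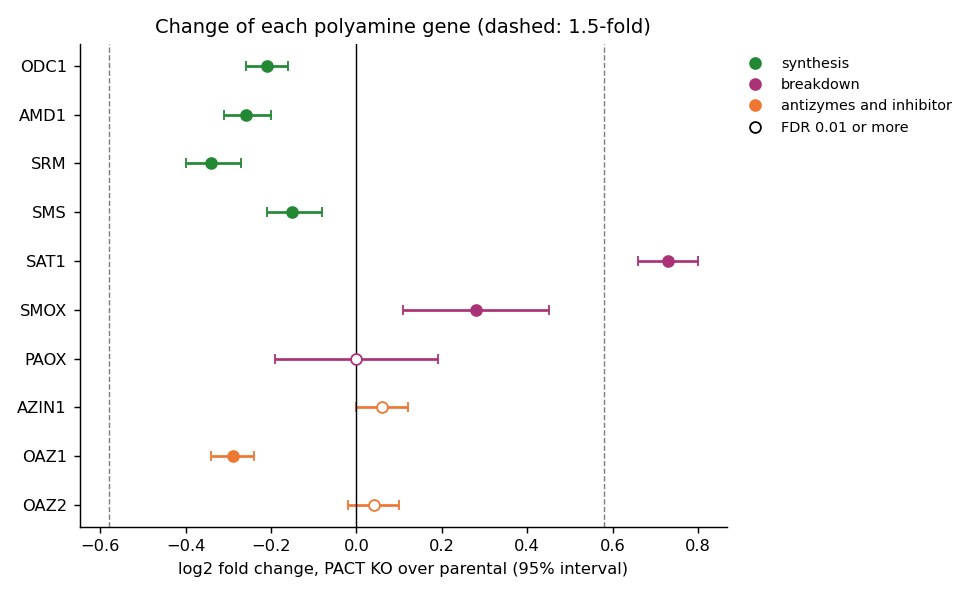
Log2 fold change of PACT KO over LNCaP parental cells with its 95% interval for the 10 polyamine genes, grouped by role; 3 libraries per group. The 4 synthesis genes and *OAZ1* lie between -0.34 and -0.15, and *SAT1* at 0.73 lies apart from the others.

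**Figure D3:**
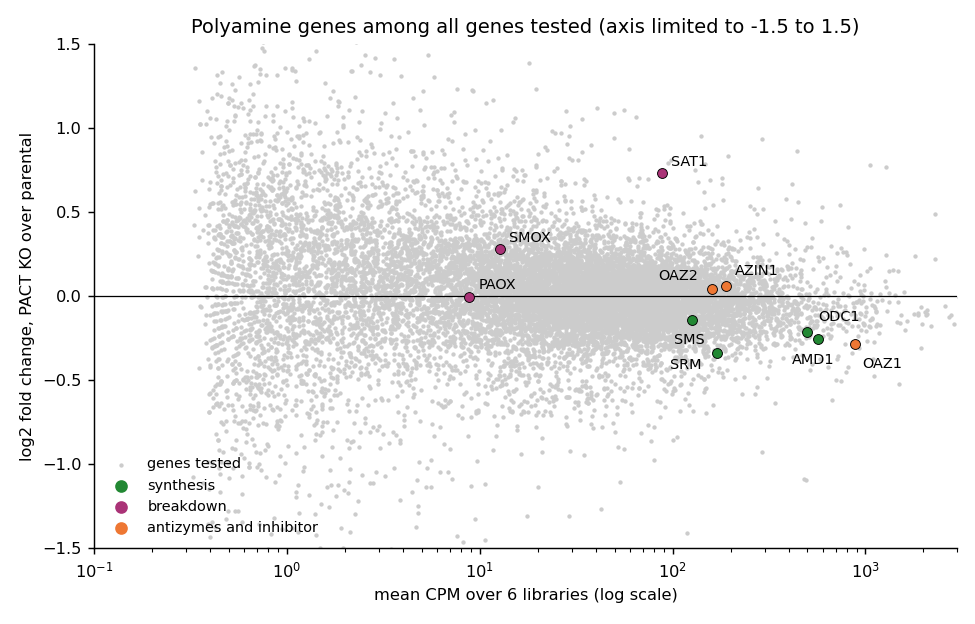
Log2 fold change against mean CPM over 6 libraries (log scale) for all 14462 genes tested (grey), with the polyamine genes coloured by role; genes beyond -1.5 or 1.5 are outside the axis. *SAT1* is near the upper edge of genes of its abundance, and the synthesis genes and *OAZ1* lie below 0 among many other abundant genes.

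Levels were compared between genes as CPM per kilobase of the union of GENCODE exons, a length that holds long and intron-retaining models and may not be the one the authors counted on. In parental cells *OAZ1* was the highest at 284.0 ± 4.5, followed by *ODC1* at 180.0 ± 0.808, *SRM* at 100 ± 4.16, *AMD1* at 87.5 ± 2.51 and *SMS* at 61.4 ± 0.159 (SD, n = 3 each). Lower still were *AZIN1* at 28.8 ± 0.864, *SAT1* at 26.4 ± 0.109 and *OAZ2* at 20.5 ± 0.33, and the oxidases *SMOX* at 3.91 ± 0.204 and *PAOX* at 3.89 ± 0.0543 were last and overlapped. Every other pair of neighbours in this order was apart in the 3 parental libraries. In PACT KO cells *SAT1*, at 42.6 to 44.6 CPM per kilobase, stood above *AZIN1* at 29.5 to 30.4, while in parental cells *AZIN1*, at 28.1 to 29.7, stood above *SAT1* at 26.3 to 26.6. *SMOX*, at 4.55 to 4.88, stood above *PAOX*, at 3.63 to 4.02, in the knockout libraries.

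Ratios of counts within a library do not depend on the scaling between libraries, and 7 were compared. The ratio of *SAT1* to *ODC1*, the first steps of breakdown and synthesis, was 0.123, 0.123 and 0.124 in parental and 0.233, 0.232 and 0.247 in PACT KO libraries, 1.92-fold higher. The ratio of *SAT1* to *AMD1* was 0.104, 0.111 and 0.107 in parental and 0.215, 0.203 and 0.221 in PACT KO libraries, 1.98-fold higher. That of *SAT1* to *SRM* was 0.343, 0.365 and 0.337 in parental and 0.768, 0.686 and 0.735 in PACT KO libraries, 2.09-fold higher. In none of these 3 ratios did the groups overlap. That follows from the single genes, since *SAT1* was higher and the others lower without overlap, so these ratios restate those changes.

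The ratio of *ODC1* to the sum of *OAZ1* and *OAZ2*, the enzyme against its antizymes, was 0.464, 0.474 and 0.480 in parental and 0.487, 0.484 and 0.472 in PACT KO libraries. These groups overlapped, with a difference of 0.03 on the log2 scale (exact permutation test, 2-sided, p = 0.300). Against *OAZ1* alone the ratio was 0.539, 0.551 and 0.557 in parental and 0.586, 0.587 and 0.564 in PACT KO libraries, 1.05-fold higher and without overlap. The ratio of *OAZ1* to *OAZ2* was 6.19, 6.18 and 6.19 in parental libraries and 4.95, 4.70 and 5.16 in PACT KO libraries, 1.25-fold lower. The ratio of *ODC1* to the antizyme inhibitor *AZIN1* was 2.79, 2.93 and 2.96 in parental and 2.43, 2.38 and 2.38 in PACT KO libraries, 1.21-fold lower. Each of the 6 ratios whose groups did not overlap had p = 0.10 in the exact permutation test (2-sided), the smallest that 3 against 3 allows, or 0.117 after Benjamini-Hochberg adjustment over the 7 ratios. For the ratios with *SAT1* this outcome was set by the single genes and adds no separate evidence.

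**Figure D4:**
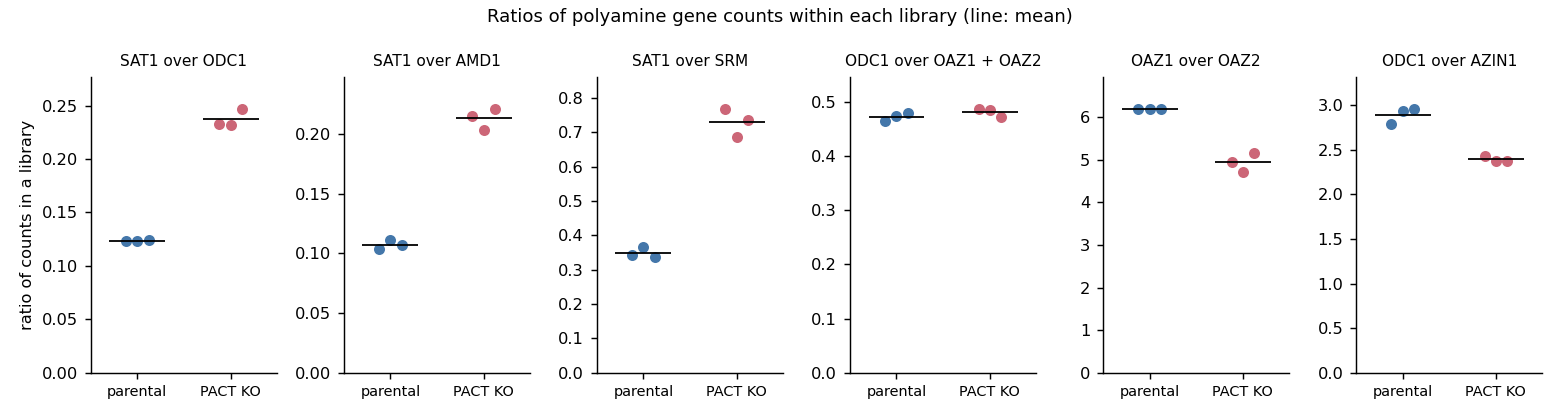
Ratio of counts within each library for 6 pairs of polyamine genes (points) with the mean of the group as a line; each vertical axis starts at 0. The ratios of *SAT1* to synthesis genes are about 0.1 to 0.4 in parental and 0.2 to 0.8 in PACT KO libraries, while *ODC1* over both antizymes overlaps between 0.464 and 0.487.

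Lists of other genes around the pathway held 46 genes, of which 34 were tested. At an FDR under 0.01 in edgeR, 15 of the 34 were lower, 4 higher and 15 did not pass, with a median log2 fold change of -0.10. Of all genes tested, 18.8% were lower and 15.3% higher, and of those averaging 100 CPM or more 37.7% were lower. Among the other polyamine enzymes and regulators, 4 of 6 were tested, with 1 lower and 2 higher. *AZIN2*, a second antizyme inhibitor, was at 2.03, 2.77 and 2.42 CPM in parental and 4.13, 4.40 and 4.55 CPM in PACT KO libraries (log2 fold change 0.85, standard error 0.14, FDR = 4.07e-06 in edgeR). Its groups were apart, but it was far less abundant than *AZIN1*. *NQO1*, a quinone reductase that protects ornithine decarboxylase from degradation, was at 198 ± 3.78 and 126 ± 8.35 CPM (SD, n = 3 each), and its log2 fold change was -0.65 (standard error 0.03, FDR = 1.36e-18 in edgeR). *SAT2*, a relative of *SAT1*, was higher, its log2 fold change being 0.16 (standard error 0.04, FDR = 2.32e-04 in edgeR), a smaller value than the 0.73 of *SAT1*. *OAZ3*, with the third frameshift site printed above, was at 10.3 ± 0.319 and 9.81 ± 0.228 CPM and did not pass (95% interval -0.25 to 0.12 on the log2 scale).

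Upstream of *ODC1*, 8 of 10 genes of arginine and ornithine supply were tested, with a median log2 fold change of -0.06. Of the 8, 2 were lower and 1 higher, against 18.8% lower and 15.3% higher of all genes tested. *ARG2*, the mitochondrial arginase that makes ornithine, was at 150, 145 and 145 CPM in parental and 215, 219 and 220 CPM in PACT KO libraries, 1.48-fold higher and just under the DEG threshold (FDR = 4.54e-19 in edgeR). *SLC7A1*, a carrier of arginine and other cationic amino acids, was at 126, 129 and 125 CPM in parental and 91.5, 94.2 and 94.2 CPM in PACT KO libraries, a fall of 26.6% (FDR = 1.22e-14 in edgeR). *ARG2*, an enzyme that yields the substrate of *ODC1*, was thus higher while *ODC1* and the arginine carrier were lower. *SLC25A15* of the same list was lower as well (log2 fold change -0.30, FDR = 3.59e-04 in edgeR).

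Around *AMD1*, 11 of 12 genes of the methionine cycle and salvage were tested, with a median log2 fold change of -0.07. Of the 11, 5 were lower and 1 higher, against 18.8% lower and 15.3% higher of all genes tested. Among genes averaging 100 CPM or more, 37.7% were lower. *MTAP*, which recycles the methylthioadenosine left by spermidine and spermine synthesis, was at 51.4, 51.3 and 51.8 CPM in parental and 42.7, 41.9 and 41.2 CPM in PACT KO libraries, a fall of 18.6% (FDR = 1.30e-07 in edgeR). *AHCY*, which clears S-adenosylhomocysteine, fell by 12% (FDR = 6.19e-07 in edgeR). Both falls were within the range of those of the synthesis enzymes.

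Spermidine is also the donor for hypusine, a modified lysine of the translation factor eIF5A. All 4 genes of this list were lower, against 18.8% of all genes, with a median log2 fold change of -0.35. Of genes averaging 100 CPM or more 37.7% were lower, a share that matches only *EIF5A* of the 4 in abundance. *EIF5A* was at 490, 470 and 454 CPM in parental and 354, 376 and 370 CPM in PACT KO libraries (log2 fold change -0.36, standard error 0.03, FDR = 3.23e-13 in edgeR). *EIF5A2*, its less abundant relative, was at 7.49, 7.26 and 7.59 CPM in parental and 5.06, 5.06 and 4.15 CPM in PACT KO libraries (-0.64, standard error 0.11, FDR = 8.03e-06 in edgeR). The enzymes that form hypusine, *DHPS* (-0.17, FDR = 2.33e-04 in edgeR) and *DOHH* (-0.33, FDR = 9.40e-04 in edgeR), were lower as well, and the groups did not overlap for any of the 4, as for 52.2% of all genes.

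Of 11 genes of polyamine transport, 7 were tested, with a median log2 fold change of -0.14. Of the 7, 3 were lower and none higher, against 18.8% lower and 15.3% higher of all genes tested. *SLC22A3*, an organic cation transporter that carries polyamines, had 133, 134 and 155 reads in parental and 10, 10 and 7 in PACT KO libraries (log2 fold change -3.95, standard error 0.19, FDR = 7.59e-20 in edgeR). *SLC3A2*, which has been linked to export of putrescine and acetylated polyamines, fell by 22.3%, and *ATP13A2*, the lysosomal polyamine exporter, fell by 8.97% (FDR = 3.27e-13 and 0.00527 in edgeR). The 3 genes listed for conjugation and secretion, *TGM2*, *TGM4* and *MSMB*, did not pass the filter and summed to at most 0.440 CPM in a library.

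*MYC*, a known activator of *ODC1*, was at 207, 202 and 203 CPM in parental and 170, 159 and 165 CPM in PACT KO libraries. Its groups were apart, its log2 fold change was -0.31 (standard error 0.03, FDR = 3.93e-11 in edgeR), and *MLX*, a partner of MYC relatives, fell by 18.3% (FDR = 4.29e-09 in edgeR). Of the 8 genes of the MYC network that were tested, 3 were lower, 1 higher and 4 not called, with a median of -0.01. The shares over all genes tested were 18.8% lower and 15.3% higher, and 37.7% lower among those averaging 100 CPM or more. Binding of MYC was not measured in these data, and a link between its level and the polyamine genes was not tested.

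**Figure D5:**
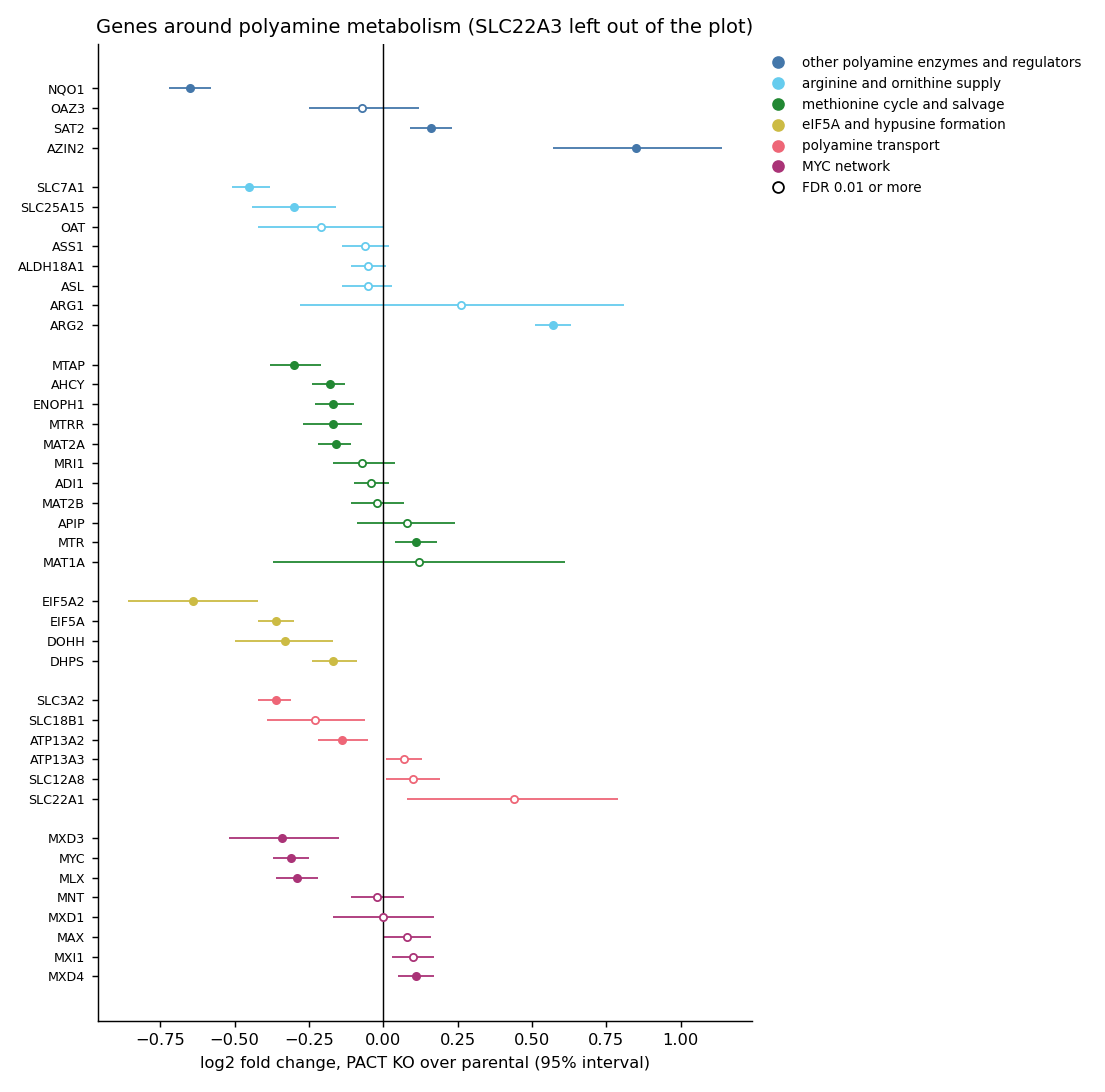
Log2 fold change of PACT KO over LNCaP parental cells with 95% interval for genes around polyamine metabolism and for the MYC network, coloured by list; filled points passed an FDR under 0.01 and open points did not. *SLC22A3* at -3.95 is left out to keep the axis readable, all 4 eIF5A and hypusine genes lie below 0, and *AZIN2* and *ARG2* are the highest of the filled points.

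Exons of *OAZ1*, *OAZ2*, *AZIN1* and *PAOX* share 5.35% to 7.22% of their bases with each GENCODE gene that overlaps them. That gene is on the opposite strand for *OAZ2* and *AZIN1* and on the same strand for *PAOX*, while *OAZ1* overlaps 1 gene on each strand, and the use of strand in counting is not given in the sources used here. Processed copies of *AMD1*, *SRM*, *SMS* and *OAZ1* are annotated elsewhere in the genome and were not analysed here, so reads shared with a near-identical copy are an uncertainty for these genes.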

How the data were processed

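PolyA RNA from 6 LNCaP libraries was sequenced on an Illumina NovaSeq. The authors deposited unnormalized read counts per NCBI Gene number. The submitters' processing notes name hg38, bcl2fastq 2.20.0.422, STAR 2.5.3a, StringTie 1.3.3 and featureCounts 1.5.3, without roles. The gene annotation and any use of strand are not given in the sources used here. Multi-mapping and overlapping reads can therefore shift single genes. A row without a gene number (0.0688% to 0.0708% of counts) was left out. Symbols came from RefSeq's GRCh38.p14 gene table and matched 27540 of 29806 numbers (92.4%).

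Columns were assigned to samples from their names and the labels. Genes were filtered by filterByExpr, scaled by TMM and tested with glmQLFit and glmQLFTest in edgeR 4.0.16 (R 4.3.3), 2-sided, with Benjamini-Hochberg adjustment over 14462 genes. The paper names edgeR, TMM, a limit of 0.01 on the FDR and of 1.5 on the fold change in either direction. The biological coefficient of variation was 2.90%. Standard errors of log2 fold changes come from the same fit, and intervals are 95%. Scripts were first tested on simulated data. Alternatives were other tests in edgeR, limma-voom (limma 3.58.1), DESeq2 1.42.0, other scalings, filters and thresholds, a replicate block, and each library left out. Sequences were read from RefSeq and GENCODE release 29 tables with Python 3.11.15.

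The members and lists were chosen with earlier results of these data known. Named outside the members are *PRKRA*, each list's DEGs and its 2 next smallest p-values, and the 3 genes most like *ODC1*. *DOHH*, *SLC25A15*, *KRT5*, *PECAM1* and the 3 conjugation genes were added to account for their lists. A result for 1 gene chosen by this rule is not reported here.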

Additional observations from a re-analysis of the deposited data

How the results depend on the processing

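Scaling, tests, filters, thresholds and left-out libraries gave 20 alternatives. The count of 5 lower polyamine genes and the DEG call of *SAT1* held in each fit against no change, *SAT1* also passed glmTreat (FDR = 8.88e-04 in edgeR), and 0 members were DEGs in the lower direction. The count of higher genes fell from 2 to 1 with edgeR's likelihood ratio test, edgeR's exact test and DESeq2, in each case by the loss of *SMOX*, was 3 with library size alone, where *AZIN1* passed, and was 1 to 2 with a library left out. *PAOX* changed sign, with a log2 fold change of 0.02 with upper quartile factors, 0.03 with library size alone, 0.00 with no filter, with at least 10 counts, with over 1 CPM and without mitochondrial genes, and -0.02 to 0.04 with a library left out, without passing the test in any. The difference of *ODC1* over its antizymes was 0.03 on the log2 scale, 0.01 to 0.04 with a library left out, and 0.08 with *OAZ1* alone as the denominator. Same-numbered dishes did not deviate together (correlations of -0.09, 0.00 and -0.08), and with the replicate block 5 members were lower and 2 higher, with 4770 genes passing against 4940. Beyond 1.5-fold itself (glmTreat), 265 genes passed against 827 DEGs. With library size alone 2286 genes were lower and 2731 higher, against 2726 and 2214 by TMM, and the median of all genes moved by 0.03. Depth limits the oxidases most.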

Other observations

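The genes whose log2 CPM followed that of *ODC1* most closely over the 6 libraries were *HS6ST2* (Pearson r = 0.9984), *TUFM* (0.9983) and *ZPLD1* (0.9981), given as a description without a test. They differed in size of change, with log2 fold changes of -1.94, -0.23 and -0.49, against -0.21 for *ODC1*. The 6 libraries form 2 groups, so such values are shared by many genes, and 85 genes had an r over 0.99 and 1064 an r over 0.95.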
